A study of Oryza sativa with 6 samples.

Results

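Values were listed for 38042 loci in roots of 2 rice (Oryza sativa) cultivars, IR29 and Mulai, and 14508 reached the minimum set below. In 23 of the 14508, IR29 and Mulai differed at least 3-fold in every root type while keeping similar levels over root types within each cultivar. Of these, 10 loci were higher and 13 were lower in IR29. They were chosen by the measured values themselves: a value of at least 10 in all 6 libraries, a ratio of IR29 over Mulai of at least 3 (or at most 1/3) in all 3 root types, and a highest root type no more than 2 times the lowest within each cultivar. The values are scaled fragment counts, that is, sequenced fragments per locus multiplied by 1 factor per library. Because the cultivar ratio and the evenness made the choice, both are described here and neither is tested.

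IR29, labelled salinity sensitive, contributed 1 library each from nodal roots, S-type lateral roots and L-type lateral roots, and Mulai, labelled salinity tolerant, contributed 1 of each as well. Per the labels, all plants grew at 30 °C by day and 25 °C by night, at 70% and 75% humidity, with days and nights of 12 h, and no salt treatment, plant age or pooling is named. Per the labels the 6 libraries were strand-specific mRNA libraries. Each cultivar and root type thus had 1 library and no replicate, so no difference below has a replicate check. The 3 IR29 libraries and the 3 Mulai libraries also refer to separate earlier records, so that cultivar and record set cannot be told apart.

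Nodal roots emerge from the nodes of the rice stem and form the main axes of the adult root system. S-type laterals are short, thin and unbranched, while L-type laterals are longer and branch again. Transcript levels of a cereal can differ between root types, between cultivars, or both. The loci described here are of the kind in which the cultivar, rather than the root type, separates the libraries. In whole roots, fewer cells of a type and less RNA per cell cannot be told apart.

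The loci carry assembly identifiers only. The table pairs no identifier with a gene name, and 0 of the 38042 matched the RefSeq gene table used here, so no function, protein or chromosome can be given for any of the 23, and root type could not be checked against marker genes. The identifiers of 4 loci are printed: in each direction the locus with the largest mean cultivar ratio and the locus with the highest mean value, or the next one where both are the same locus. All others are described by their rank in that ratio, which is the geometric mean over the 3 root types.

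Whole reads could be recovered from the deposited values, and the 6 libraries held between 3891153 and 7904454 reads. Every IR29 library was shallower than every Mulai library. A value of 10 therefore stood for fewer reads in IR29, where 1 read was worth 1.153 to 1.504 units, than in Mulai, where it was worth 0.601 to 0.890 units. Over all loci that met the minimum, IR29 stood at a median of 1.01 times Mulai in nodal roots, 0.998 times in S-type laterals and 1.05 times in L-type laterals, all close to 1. The values are not divided by transcript length, and a higher value of one locus than of another does not mean a more abundant transcript.

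The minimum of 10 was met by 14508 loci. Of these, 49 (0.338%) were at least 3-fold higher in IR29 in all root types and 48 (0.331%) were at least 3-fold lower. Levels were even over the root types in both cultivars in 5036 of the 14508 loci (34.7%). Both conditions together left the 10 higher loci, 0.199% of the even loci, and the 13 lower loci, 0.258% of the even loci. Even loci made up 20.4% of the loci shifted upward in IR29 and 27.1% of those shifted downward. As the rule used these contrasts, the shares describe how rare the combination was.

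The other shifted loci, 39 higher and 35 lower in IR29, kept the cultivar difference but exceeded the root type range of 2. In the higher direction, 15 of the 39 were uneven in IR29 alone, 7 in Mulai alone and 17 in both cultivars. In the lower direction, 14 of the 35 were uneven in IR29 alone, 5 in Mulai alone and 16 in both. IR29 had the wider root type range in general, with a median of 2.24 over the 14508 loci, against 1.77 in Mulai, so these counts say nothing particular of the shifted loci. The median of their mean cultivar ratios was 5.88 for the higher and 0.149 for the lower loci.

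**Figure D1:**
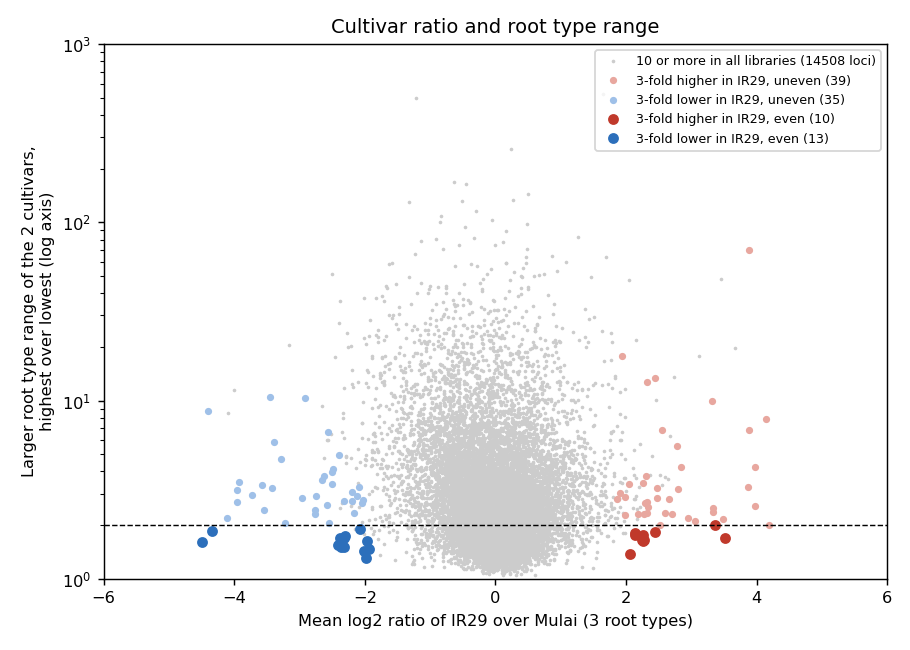
Mean log2 ratio of IR29 over Mulai across the 3 root types (x axis) against the larger of the 2 cultivars' root type ranges, highest over lowest (y axis, log scale), for each of the 14508 loci with 10 or more in all libraries. The 10 higher and 13 lower loci lie at or under the dashed line at a range of 2, far to either side of the bulk, and pale points are the 39 and 35 shifted loci above it.

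The locus with the largest ratio among those higher in IR29 was XLOC_021609. In IR29 its scaled counts were 267 (nodal), 241 (S-type) and 158 (L-type), against 19.2, 18.7 and 18.8 in the same root types of Mulai. All 3 IR29 libraries lay at least 8.22-fold above the highest Mulai library, and the Mulai values were nearly identical. The ratio was 13.9 in nodal roots (95% counting interval 9.58 to 20.8), 12.9 in S-type roots (8.14 to 21.4) and 8.40 in L-type roots (5.33 to 13.9), with a geometric mean of 11.5. In Mulai this rested on 32, 21 and 22 reads. Within IR29 the L-type value was 0.591 of the nodal value (counting interval 0.474 to 0.734), so that evenness at the scale of the rule still held a difference between root types beyond counting error. In Mulai the same ratio was 0.978 (0.541 to 1.74), an interval that overlapped that of IR29.

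XLOC_016165 had the highest mean value of the higher loci and was the fourth by ratio. In IR29 it had scaled counts of 776 (nodal), 794 (S-type) and 1285 (L-type), against 179, 211 and 184 in Mulai. IR29 was above Mulai in every library, with the smallest IR29 value 3.68 times the largest Mulai value. The ratios were 4.35 in nodal roots (3.79 to 4.999), 3.76 in S-type roots (3.22 to 4.41) and 6.99 in L-type roots (6.03 to 8.13). With 215 to 1097 reads per library, it had the narrowest intervals of the 10 loci, and the L-type interval did not touch the others. In IR29 the L-type value was 1.66 times the nodal value (1.503 to 1.83), whereas in Mulai it was 1.03 times (0.860 to 1.23).

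The second-ranked higher locus had values of 115, 230 and 177 in nodal, S-type and L-type roots of IR29, against 19.8, 16.9 and 12.8 in Mulai. Its ratio was 5.81 in nodal roots and 13.6 and 13.8 in S-type and L-type roots, a mean of 10.3. This locus lay at the edge of the rule, since its S-type value in IR29 was 1.996 times its nodal value. Apart from these first 2 loci, the mean ratio of the other 8 lay between 4.18 and 5.44, with no locus between 5.44 and 10.3.

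The ratio was steadiest over the root types in the tenth-ranked higher locus. It had 141, 126 and 173 in IR29, against 33.1, 31.1 and 41.0 in Mulai, and ratios of 4.25 for nodal roots, 4.06 for S-type laterals and 4.22 for L-type laterals. Its intervals of S-type or L-type over nodal roots all held 1 in both cultivars, so counting error covered those differences. By value, L-type was the highest and S-type the lowest library in both cultivars. By contrast, the third-ranked locus had 610, 335 and 509 in IR29, against 81.1, 97.0 and 82.1 in Mulai, and its ratio was 7.52 in nodal roots but 3.46 in S-type roots. S-type was the lowest library of IR29 and the highest of Mulai for that locus.

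The remaining 5 higher loci fell into a pair of profiles by the root type that led in IR29. The fifth, seventh, eighth and ninth by rank were highest in L-type roots of IR29. The fifth had 74.9, 96.2 and 131 in nodal, S-type and L-type roots of IR29, against 19.8, 24.03 and 17.96 in Mulai, and its ratio was 7.30 in L-type roots, against 3.78 in nodal roots. The seventh had 118, 192 and 193 in IR29, against 31.3, 34.7 and 38.5 in Mulai, with ratios from 3.76 to 5.55. The ninth had 314, 254 and 341 in IR29, against 98.6, 56.1 and 58.1 in Mulai, where the nodal library stood 1.76-fold above the S-type library. The sixth was instead highest in nodal roots, with 247, 203 and 152 in IR29, against 40.3, 40.9 and 42.8 in Mulai. Like XLOC_021609, it declined toward the L-type library in IR29 and was flat by value in Mulai, where the highest library was 1.06 times the lowest. Its L-type over nodal interval was 0.492 to 0.771 in IR29 and 0.721 to 1.55 in Mulai. These intervals overlap at their edges, which does not settle whether the 2 cultivars differ in this decline, and that difference was not tested. The eighth had the fewest reads, with 58.8, 79.7 and 87.8 in IR29, against 16.2, 23.1 and 12.8 in Mulai.

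Over all 10 higher loci, IR29 values ranged from 58.8 to 775.9 (nodal), from 79.7 to 794.0 (S-type) and from 87.8 to 1285 (L-type). Mulai values ranged from 16.2 to 178.5, from 16.9 to 211 and from 12.8 to 184 in the same root types. IR29 and Mulai libraries overlapped in 0 of the 10 loci, which the rule itself requires. Their median ratio was 4.30 for nodal roots, 4.29 for S-type laterals and 6.53 for L-type laterals. The difference was widest in L-type roots in 5 loci, in nodal roots in 4 and in S-type roots in 1. Over all even loci the median ratio was 1.05 in nodal roots, 0.980 in S-type laterals and 1.15 in L-type laterals. The root type of the widest difference was not counted over all even loci, so this split is no result about the 10 loci.

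**Figure D2:**
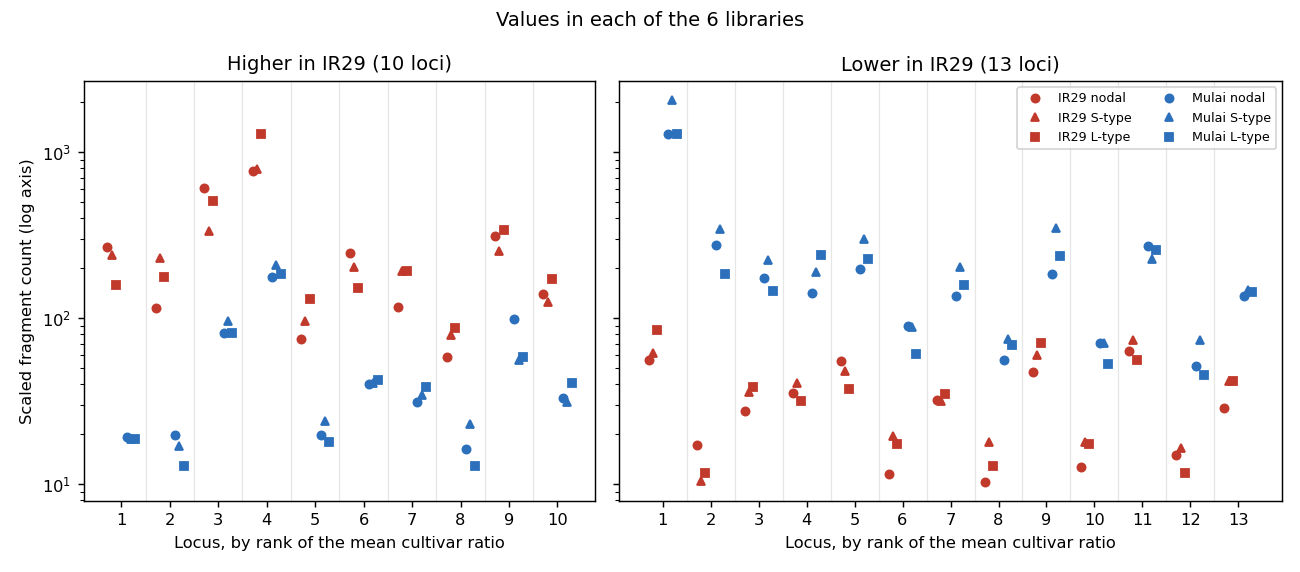
Scaled fragment count (y axis, log scale) of each of the 10 loci higher and 13 loci lower in IR29 (x axis, by rank of the mean cultivar ratio) in every library, with IR29 in red, Mulai in blue and marker shape for root type. In each locus the 3 libraries of a cultivar lie within a 2-fold range and the cultivars do not overlap, both of which the rule requires.

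In the lower direction, XLOC_029573 had both the largest difference and the highest mean value. In IR29 its scaled counts were 56.5 (nodal), 61.7 (S-type) and 85.5 (L-type), against 1292, 2064 and 1288 in Mulai. The lowest Mulai library lay 15.1-fold above the highest IR29 library. IR29 was 22.9-fold lower in nodal roots (counting interval 17.2 to 31.0), 33.5-fold lower in S-type roots (24.6 to 46.8) and 15.1-fold lower in L-type roots (11.9 to 19.3). The locus was read in IR29 by 49, 41 and 73 reads, and was therefore low there rather than undetected. In Mulai the S-type value was 1.597 times the nodal value (1.51 to 1.69). The same ratio in IR29 was 1.09 (0.703 to 1.69), an interval that held the Mulai ratio.

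XLOC_014227, the next by mean value, ranked eleventh by ratio. It had 63.4, 73.7 and 56.2 in nodal, S-type and L-type roots of IR29, against 275, 229 and 259 in Mulai. The root types differed by up to 1.31-fold within IR29 and 1.201-fold within Mulai, and IR29 was below Mulai throughout. IR29 was 4.33-fold lower in nodal roots (3.27 to 5.84), 3.10-fold lower in S-type roots (2.28 to 4.30) and 4.61-fold lower in L-type roots (3.39 to 6.39). The variance that the authors deposited for this locus was wide, with a square root of 0.898 to 1.49 times the value in its 6 libraries.

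The second-ranked lower locus had values of 17.3, 10.5 and 11.7 in IR29, against 276, 344 and 185 in Mulai. IR29 was 16.0-fold lower in nodal roots (9.59 to 28.8), 32.7-fold lower in S-type roots (15.7 to 81.9) and 15.8-fold lower in L-type roots (8.41 to 33.4). As with XLOC_029573, the S-type libraries gave the widest difference. Only 15, 7 and 10 reads stood behind the IR29 values, and the intervals were correspondingly broad. Past these first 2 loci the mean difference of the other 11 lay between 3.84-fold and 5.32-fold, with no locus between 5.32-fold and 20.2-fold. The gap among the higher loci, from 5.44 to 10.3, was narrower.

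The fourth-ranked lower locus departed from the others in its root type order. It had 35.7, 40.6 and 31.6 in IR29, against 141, 190 and 240 in Mulai, where it was the 1 lower locus with L-type as the highest library. The difference was 7.60-fold in L-type roots, against 3.95-fold in nodal roots. The ninth-ranked locus held the widest Mulai range of the lower loci, 1.89, with 47.3, 60.2 and 71.4 in IR29, against 184, 348 and 239 in Mulai.

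Among the other lower loci, the third had 27.7, 36.1 and 38.6 in nodal, S-type and L-type roots of IR29, against 176, 226 and 146 in Mulai, and was 6.34-fold lower in nodal but 3.78-fold lower in L-type roots. The fifth had 55.3, 48.1 and 37.5 in IR29, against 199, 300 and 228 in Mulai. It was, with the second, 1 of the 2 lower loci with nodal as the highest IR29 library. The seventh was the flattest of the 13 in IR29, with 32.3, 31.6 and 35.1, against 136, 204 and 159 in Mulai. The thirteenth was the flattest in Mulai, with 28.8, 42.1 and 42.2 in IR29, against 136, 148 and 145 in Mulai, a Mulai range of 1.09.

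Like the second, the sixth, the eighth, the tenth and the twelfth lower loci held under 20 in every IR29 library. The IR29 values of these last 4 lay between 10.4 and 19.5, against Mulai values between 45.3 and 90.2. Each was supported by 9 to 15 reads per IR29 library, and their intervals included differences smaller than 3-fold in at least 1 root type. The tenth lay nearest the threshold, at 3.02-fold in L-type roots with an interval of 1.70 to 5.71.

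Over all 13 lower loci, IR29 values ranged from 10.4 to 63.4 (nodal), from 10.5 to 73.7 (S-type) and from 11.7 to 85.5 (L-type). Mulai values ranged from 51.7 to 1292, from 71.2 to 2064 and from 45.3 to 1288. The median difference was 4.71-fold for nodal roots, 4.67-fold for S-type laterals and 4.53-fold for L-type laterals, so the root types gave nearly the same median. The difference was widest in S-type roots in 6 loci, in nodal roots in 5 and in L-type roots in 2. This split, too, was not counted over all even loci and is no result about the 13 loci. Several of these loci sat close to the minimum, and 5 of the 13 had a library with under 20 reads, against 2 of the 10 higher loci.

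**Figure D3:**
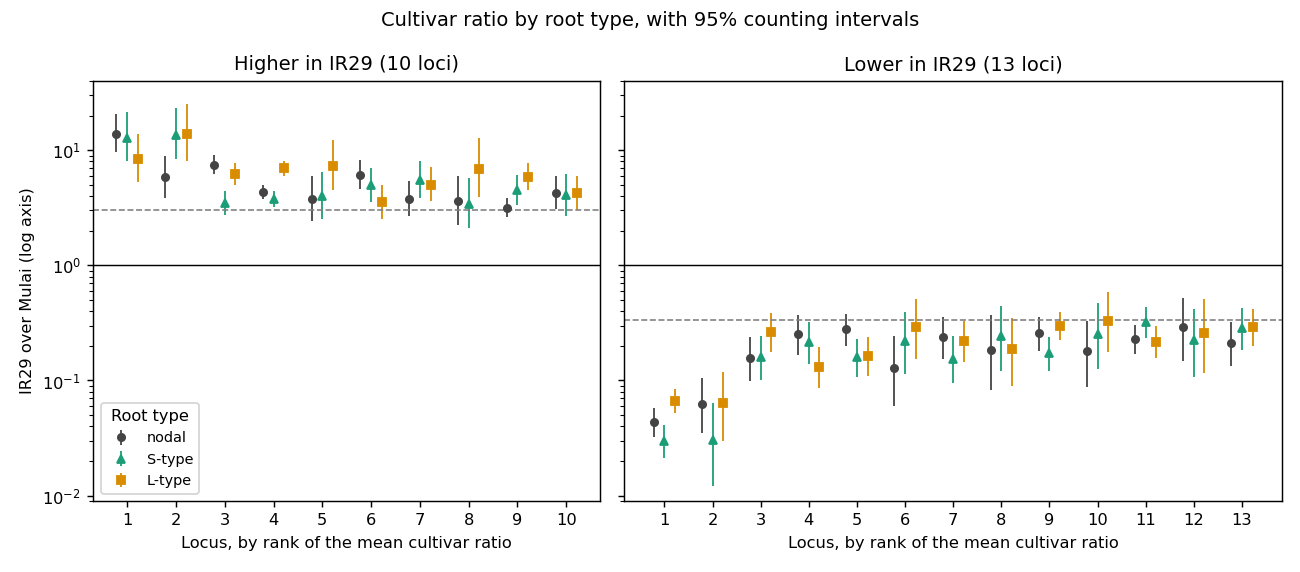
Ratio of IR29 over Mulai (y axis, log scale) in nodal, S-type and L-type roots for each locus, with exact 95% counting intervals, a solid line at 1 and a dashed line at the threshold of 3 or 1/3. In either direction the first 2 loci stand apart from the rest by their mean ratio over the 3 root types. Among the higher loci this does not hold in each root type. In nodal roots the second locus was at 5.81 and the third at 7.52. No interval reaches 1, which the choice by 3-fold ratios made likely.

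The counting intervals showed how far reads alone could place each ratio. They are exact conditional binomial intervals on the recovered reads and cover counting error only. All 3 intervals of a locus lay past a 2-fold difference in 10 of the 10 higher and in 10 of the 13 lower loci. They lay past a 3-fold difference in 3 of the 10 higher and 2 of the 13 lower loci. The rule required every one of these ratios to be at least 3 or at most 1/3. The counts past 2-fold therefore follow largely from the choice and are no check of the loci. For the other 7 higher and 11 lower loci the depth could not place all root types past the threshold by which the locus was chosen.

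A spread wider than counting error accompanied the values in the authors' deposited table. With 1 library per cultivar and root type, it cannot come from replicates within a group. The square root of the deposited variance, read as being in the units of the values since no unit is stated, was a median 0.554 to 0.557 times the value over the 14508 loci. In the 23 loci, the corresponding medians by library were 0.601 to 0.7001. With this spread added and subtracted, the cultivars stayed apart in all 3 root types in 6 of the 10 higher and 5 of the 13 lower loci, among them XLOC_021609, XLOC_016165 and XLOC_029573. They stayed apart in 0 root types in 1 higher and 2 lower loci, XLOC_014227 among them. The rule had chosen the loci by the same cultivar ratios, so these counts describe the loci and do not check them. They were not made over all 14508 loci. The eighth-ranked higher locus had the widest deposited spread, up to 3.67 times its value.

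The rule caps the root type range but leaves the order of the root types free. Among the 10 higher loci, L-type was the highest library of IR29 in 6, nodal in 3 and S-type in 1, where these shares were 42.8%, 30.0% and 27.2% over all even loci. In Mulai the highest library of these loci was S-type in 4, nodal in 3 and L-type in 3, beside 48.0%, 33.9% and 18.1% of all even loci. Among the 13 lower loci, S-type was the highest library of IR29 in 6, L-type in 5 and nodal in 2, beside the 27.2%, 42.8% and 30.0% above. In Mulai S-type was the highest library in 10 of the 13, nodal in 2 and L-type in 1. The same root type was highest in both cultivars in 3 of the 10 higher and 3 of the 13 lower loci, against 44.3% of all even loci. These orders rest on 1 library per point and on few loci and were not tested, and their distance from the even loci is no result about them.

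Ratios of a lateral root type over nodal roots put sizes to these orders. For the higher loci, the median L-type over nodal ratio was 1.36 in IR29 (range 0.591 to 1.75) and 0.995 in Mulai (0.590 to 1.24), beside 1.07 in IR29 and 0.971 in Mulai over all even loci. Their S-type over nodal ratio had a median of 0.961 in IR29 (0.550 to 1.996) and 1.06 in Mulai (0.569 to 1.43), beside 0.994 in IR29 and 1.06 in Mulai over all even loci. For the lower loci, the median S-type over nodal ratio was 1.16 in IR29 (0.609 to 1.74) and 1.34 in Mulai (0.833 to 1.89). The L-type over nodal ratio of the lower loci had a median of 1.24 in IR29 (0.677 to 1.52) and 0.996 in Mulai (0.668 to 1.70).

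Counting error covered many of these root type ratios. In the lower loci, the S-type over nodal interval held 1 in 13 of 13 loci in IR29, whereas in Mulai it held 1 in 4, lay above 1 in 8 and lay below 1 in 1. Their L-type over nodal interval held 1 in 11 of 13 loci in IR29 and in 9 of 13 in Mulai. In the higher loci, the L-type over nodal interval held 1 in 2 of 10 loci in IR29 and in 9 of 10 in Mulai. In IR29 5 of the other 8 lay above 1 and 3 below. The S-type over nodal interval of the higher loci held 1 in 6 of 10 in IR29 and in 9 of 10 in Mulai. All 4 such intervals of a locus held 1 in 1 higher and 3 lower loci. Reads per library in the lower loci were 7 to 73 in IR29 and 53 to 2319 in Mulai. In the higher loci they were 51 to 1097 in IR29 and 15 to 297 in Mulai. Fewer reads give wider intervals, so these counts do not compare the root types of the 2 cultivars. They were not made over all even loci.

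**Figure D4:**
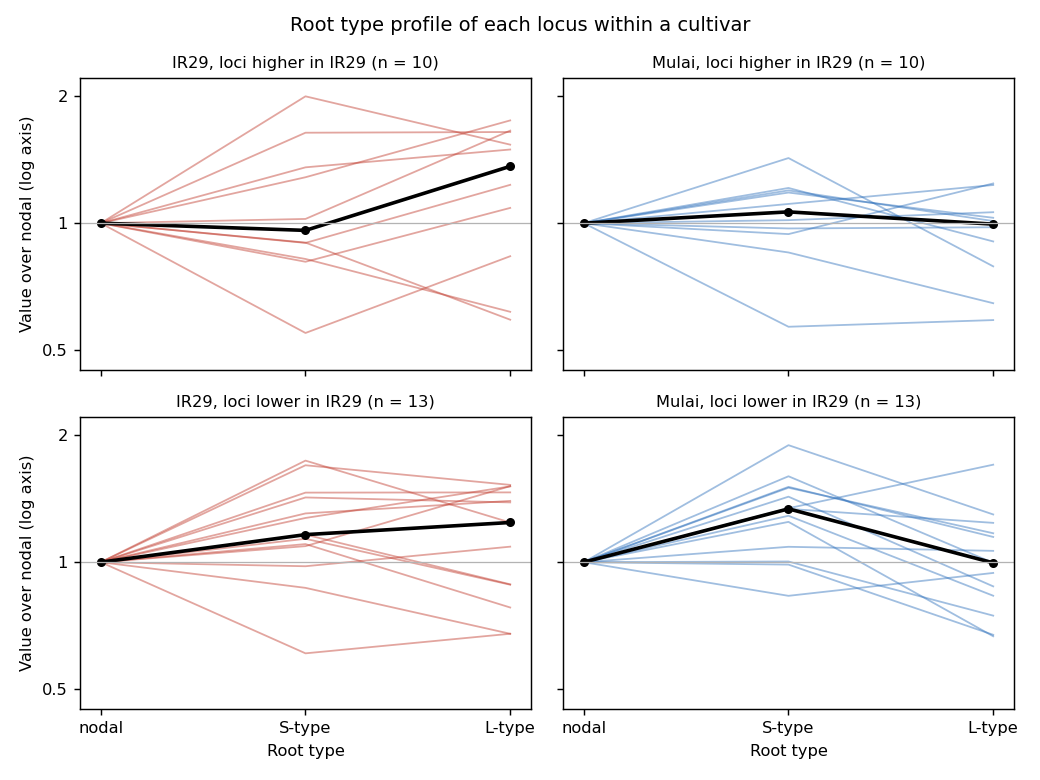
Value in each root type over the nodal value of the same cultivar (y axis, log scale) for loci higher in IR29 (top) and lower in IR29 (bottom), with IR29 at left and Mulai at right. Thin lines are loci and the black line is their median, which is 1.36 for L-type roots of IR29 among the higher loci and 1.34 for S-type roots of Mulai among the lower loci.

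The values of loci on either side of each threshold were close. Among the higher loci, the smallest ratio in the weakest root type was 3.18, and the nearest even locus outside reached 2.78. For the lower loci these were 3.02-fold and 2.91-fold. The widest root type range inside was 1.996 for the higher and 1.89 for the lower loci, and the narrowest outside was 2.01 and 2.04. The lowest single value inside was 12.8 for the higher and 10.4 for the lower loci, and the nearest locus that missed only the minimum had 9.02 in either direction.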

How the data were processed

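One table covered 3 root types of 2 rice cultivars, 6 libraries in all. The tools named in the submitters' processing notes are Bowtie, Cuffdiff 2.2.1, Cufflinks 2.2.1, TopHat2 2.0.11 and Trimmomatic 0.32. Those notes give IRGSP-1.0 as the build, which is that of Nipponbare, a cultivar that was not measured here. The sources used here give no options, no annotation and no treatment of strand or of multiply aligned reads. Whether similar or overlapping loci share reads was not assessed.

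The authors deposited, per the file headers, a signal per locus: fragment counts times 1 factor per library. Dividing each library by its step returned whole reads for 100% of the nonzero values (tolerance 0.1 of a read). The authors also deposited variances of these counts. The uncertainty variance was 0 in every locus and no locus had a status other than OK.

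The members were chosen with earlier results of these data known, and so was the set of alternatives. The choice used a minimum of 10, a cultivar ratio of 3 and a root type range of 2. Since the choice used the cultivar and root type contrasts and each group had 1 library, no test, and no test on the recovered reads, was made. Ratios have exact 95% conditional binomial intervals (scipy 1.17.1). PCR duplicates were not identified, and intervals cover counting error only. Scaling alternatives used edgeR 4.0.16 (TMM) and DESeq2 1.42.0 (median of ratios) for their scaling factors alone. The recovery of reads, the rule and the interval were tested on simulated data. The identifiers printed follow a rule set with the design: in each direction the largest mean ratio and the highest mean value, or the next by mean value where both fall on 1 locus. Other loci described by rank were chosen after their values were seen.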

Additional observations from a re-analysis of the deposited data

How the results depend on the processing

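The counts of 10 higher and 13 lower loci follow the limits of the rule. A minimum of 5 gave 18 higher and 16 lower loci, 20 gave 6 higher and 8 lower, and 50 gave 3 and 2. A cultivar ratio of 2 gave 39 higher and 34 lower, and a ratio of 4 gave 3 and 4. A root type range of 1.5 gave 1 and 3, a range of 3 gave 31 and 30, and no limit on the range gave 49 and 48. Leaving out each library in turn removes a root type from the cultivar ratio and gave 15 to 45 higher and 17 to 47 lower loci. These were 45 and 47 without IR29 nodal, 23 and 43 without IR29 S-type, 22 and 31 without IR29 L-type, 32 and 25 without Mulai nodal, 27 and 26 without Mulai S-type, and 15 and 17 without Mulai L-type. Fewer conditions can only add loci.

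A minimum of 10 reads in place of 10 units gave 14 and 11. Other scalings changed the counts less, to 11 to 12 higher and 11 to 15 lower loci with thinned reads included. TMM and the median of ratios kept all 10 and all 13, and reads thinned to the smallest total 10 and 10. Scaling to the library total kept 7 and 11. It set the median log2 ratio of all loci at -0.15 for S-type and 0.15 for L-type laterals, against -0.0030 and 0.069 as deposited. The direction of every locus held in all root types under these 4 settings, which the choice by 3-fold differences made likely. The 48 ratios of the 4 printed loci under them stayed within their counting intervals. On the same scalings, chosen after seeing the data, S-type was highest in Mulai in 7 to 10 of the 13 lower loci and L-type highest in IR29 in 6 to 7 of the 10 higher loci. No paired analysis was possible because of the replicate numbers, which leave 1 library in each group. A model with root type as a block could be fitted to the 6 libraries but was not, since the rule had used the cultivar contrast. Ratios of the cultivars were taken within each root type.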

Other observations

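The 23 loci did not carry neighbouring identifiers. Their numbers ran from 2020 to 37943, 0 pairs were consecutive, either among all loci or among the 14508 with 10 or more in every library, and the smallest gap was 68. What the order of the identifiers stands for is not given in the sources used here.

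In single root types, the 3-fold differences were spread as follows over the 14508 loci. Higher in IR29 by 3-fold were 579 loci in S-type, 571 in L-type and 158 in nodal roots, and 3-fold lower were 317, 1189 and 260 in the same order.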
